A study of Mus musculus with 235 samples.

Results

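The blood-brain barrier genes described here are 5 transporters and 3 tight junction genes, 8 of the 27998 genes in the count table, chosen by name. The transporters are Slco1a4, Abcb1a, Abcg2, Slc2a1 and Mfsd2a, and the junction genes are Cldn5, Ocln and Tjp1. Messenger RNA was measured by 3′ end sequencing with molecular identifiers in libraries that each came from 1 of 8 punched brain regions of 1 mouse. All 30 animals were 3-month-old male C57Bl/6 mice with no labelled genetic change. In the dexamethasone arm, 15 animals received the synthetic glucocorticoid dexamethasone at 10 mg per kg by intraperitoneal injection. The 15 vehicle animals received saline, and tissue was taken after 4 h from perfused brains. Written as in the labels, the regions were dCA1, vCA1, dDG and vDG, and AMY, PFC, PVN and CER. Each region had 13 to 15 libraries per arm, and every library of a region came from a different animal. The punches held all cell types of the region, so fewer endothelial cells and less RNA per endothelial cell cannot be told apart.

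The blood-brain barrier is formed by the endothelial cells of brain capillaries, with pericytes and astrocyte endfeet around them. Tight junctions seal the gaps between these cells, vesicle traffic through them is low, and carriers and efflux pumps decide which solutes cross. Glucocorticoids act through the glucocorticoid receptor, a transcription factor that brain endothelial cells also carry. Among the members, Slc2a1 (GLUT1) carries glucose and is also made by astrocytes, Mfsd2a carries lysophospholipids that hold omega-3 fatty acids and keeps caveolar vesicle traffic low, and Slco1a4 (Oatp1a4) exchanges organic anions such as steroid conjugates. Abcb1a (P-glycoprotein) and Abcg2 (breast cancer resistance protein) pump drugs back into blood. Abcb1a also exports glucocorticoids, dexamethasone among them. Cldn5 is the main sealing claudin of brain endothelium, Ocln (occludin) is a second membrane protein of the junction, and Tjp1 (ZO-1) is the scaffold inside it, made in many cell types.

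In the 8 regions, Slc2a1 and Mfsd2a rose after dexamethasone and Slco1a4 fell in each one. Cldn5 fell in each region to 0.258 to 0.471 times its vehicle level, but its counts were too low for the main test, and these values come from a fit without a filter on low counts. Abcb1a, Abcg2, Ocln and Tjp1 passed the threshold in no region.

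The stretches upstream of the start sites of the 4 genes that changed in all regions are shown because a pair of them rose together and a pair fell together. They are RefSeq sequence on GRCm38.p6, the 200 bases from 250 to 51 before the annotated start, 5′ to 3′ on the gene's strand, with every CG in capitals. The coordinates are chr4:119108495-119108694 on the plus strand for Slc2a1, chr4:122961239-122961438 on the minus strand for Mfsd2a, chr6:141856271-141856470 on the minus strand for Slco1a4 and chr16:18776597-18776796 on the plus strand for Cldn5.

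Slc2a1: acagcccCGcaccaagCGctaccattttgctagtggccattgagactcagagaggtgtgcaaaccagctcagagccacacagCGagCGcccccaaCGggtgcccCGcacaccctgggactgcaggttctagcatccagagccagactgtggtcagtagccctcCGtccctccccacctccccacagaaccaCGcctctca
Mfsd2a: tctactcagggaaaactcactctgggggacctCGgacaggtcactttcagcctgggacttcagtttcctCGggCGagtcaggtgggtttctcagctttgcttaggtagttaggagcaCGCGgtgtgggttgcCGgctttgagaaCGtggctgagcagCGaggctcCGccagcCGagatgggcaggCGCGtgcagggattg
Slco1a4: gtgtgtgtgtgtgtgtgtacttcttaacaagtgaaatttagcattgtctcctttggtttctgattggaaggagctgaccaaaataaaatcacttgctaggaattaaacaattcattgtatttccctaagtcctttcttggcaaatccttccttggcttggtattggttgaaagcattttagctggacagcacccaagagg
Cldn5: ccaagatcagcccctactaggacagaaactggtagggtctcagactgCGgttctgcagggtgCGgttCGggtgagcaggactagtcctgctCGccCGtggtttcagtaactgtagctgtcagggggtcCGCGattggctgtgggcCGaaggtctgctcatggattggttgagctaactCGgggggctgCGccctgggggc

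The Slco1a4 stretch held 0 CG dinucleotides, a count that 10.9% of 32514 RefSeq promoter windows of this length shared. Slc2a1 held 8, Cldn5 10 and Mfsd2a 12, against a median of 4 over all windows. The glucocorticoid receptor's palindrome, AGAACA and TGTTCT with NNN between them, and the single site AGAACA were searched on both strands, so every palindrome also counts as a single site. Neither occurred in these 4 stretches. Over all windows of this length, 0.00923% held the palindrome and 13.2% held the single site. These letters are therefore not in this window, and nothing further is read from that.

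The members lie on 6 chromosomes, and positions are those of the count table, read as GRCm38 (mm10 per the submitters' processing notes). Slc2a1 spans chr4:119108711-119137983 on the plus strand and Mfsd2a chr4:122946850-122961188 on the minus strand. Slco1a4 spans chr6:141805440-141856199 on the minus strand and Abcg2 chr6:58584523-58695676 on the plus strand. Abcb1a spans chr5:8660077-8748575 on the plus strand, Cldn5 chr16:18776847-18778260 on the plus strand, Ocln chr13:100496507-100552718 on the minus strand and Tjp1 chr7:65296165-65527781 on the minus strand. Counts refer to the exons of each gene. No exon was shared with another gene except 105 bases of Slc2a1, which overlap the antisense gene Gm12868, and that gene had 0 counts. In Abcb1a, 17.6% of 50-base exon windows also occur in another gene, mostly its close copy Abcb1b. How reads from such windows were counted is not known. The share of shared windows was 1.61% for Slco1a4, 0.663% for Abcg2 and 0 for the other 5 members. Windows were taken over whole transcripts, while the reads come from 3′ ends.

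Totals per library lay between 268538 and 1451422 counts (median 742957). RNA integrity (RIN) averaged 5.69 to 7.81 per group, and 24 libraries had a RIN under 5. Levels are given as CPM, the count of a gene relative to its library's scaled total, with scaling by trimmed mean of M values (TMM) over all libraries, and 3 counts in 1 library correspond to 2.07 to 11.2 CPM. The known glucocorticoid targets Fkbp5, Tsc22d3 and Sgk1 rose in all 8 regions, and Nr3c1, the receptor gene, fell in all 8. None of the 80 tests of 10 neuronal markers passed in edgeR or in DESeq2, with 2 at an unadjusted p under 0.05. Each of the 22 endothelial markers was detected, and those at 0 in the most libraries were Erg (20 libraries) and Tek (17). The vehicle replicate 4 library of dCA1 stood apart: its 262 CPM of Slco1a4 (65 counts) was the highest of any library, and it is absent from the authors' normalised table of that region.

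In vehicle animals, the levels of 5 members differed among the 8 regions (edgeR quasi-likelihood F test with the animal as a block, adjusted over all genes). That test called 73.3% of all 10451 genes tested, so a regional difference was the common case. Ocln, the junction's occludin, differed most in size, with 16.7 ± 5.83 CPM (SD, n = 15) in dDG and 16.4 ± 4.98 in dCA1. It then stood at 10.6 ± 3.73 CPM in vDG, 7.39 in CER, 6.32 in vCA1, 6.06 in PFC, 5.71 in AMY and 4.75 ± 3.10 (n = 14) in PVN. The highest mean was 3.51 times the lowest (adjusted p = 2.2e-16). The step from dCA1 to vDG was the single one between neighbouring regions, over all 8 members, that exceeded the larger SD of the pair. Summed dentate markers were also highest in these regions. Their vehicle means were 645 CPM in dCA1, 572 in dDG, 227 in vDG and 107 to 145 in the other regions. The part of punch content in the Ocln levels was not tested.

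Slc2a1, Mfsd2a and Slco1a4 had their highest vehicle level in CER, at 118 ± 25.7, 51.9 ± 17.2 and 145 ± 40.7 CPM (SD, n = 15). The lowest levels were 75.0 ± 20.8 CPM in PFC for Slc2a1, 28.0 ± 9.52 in dDG for Mfsd2a and 98.2 ± 19.8 in dDG for Slco1a4. Adjusted p-values of the F test were 1.59e-05, 7.84e-08 and 0.00016. Abcg2 ran from 65.3 ± 13.5 CPM in vDG to 36.4 ± 6.13 in PVN (adjusted p = 6.45e-06). In these 4 genes neighbours in the order did not differ beyond their SD. Levels of Abcb1a (16.8 to 27.0 CPM, adjusted p = 0.0546), Cldn5 (11.4 to 18.6 CPM, adjusted p = 0.248) and Tjp1 (46.1 to 52.4 CPM, adjusted p = 0.806) did not pass. Abcb1a passed in 4 alternative fits (adjusted p 0.0239 with the endothelial level as a covariate, 0.0361 with upper-quartile scaling, 0.0435 without the animal block and 0.0445 in the libraries of the authors' tables), and not without the filter on low counts (0.0627) or without libraries of RIN under 5 (0.0542).

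**Figure D1:**
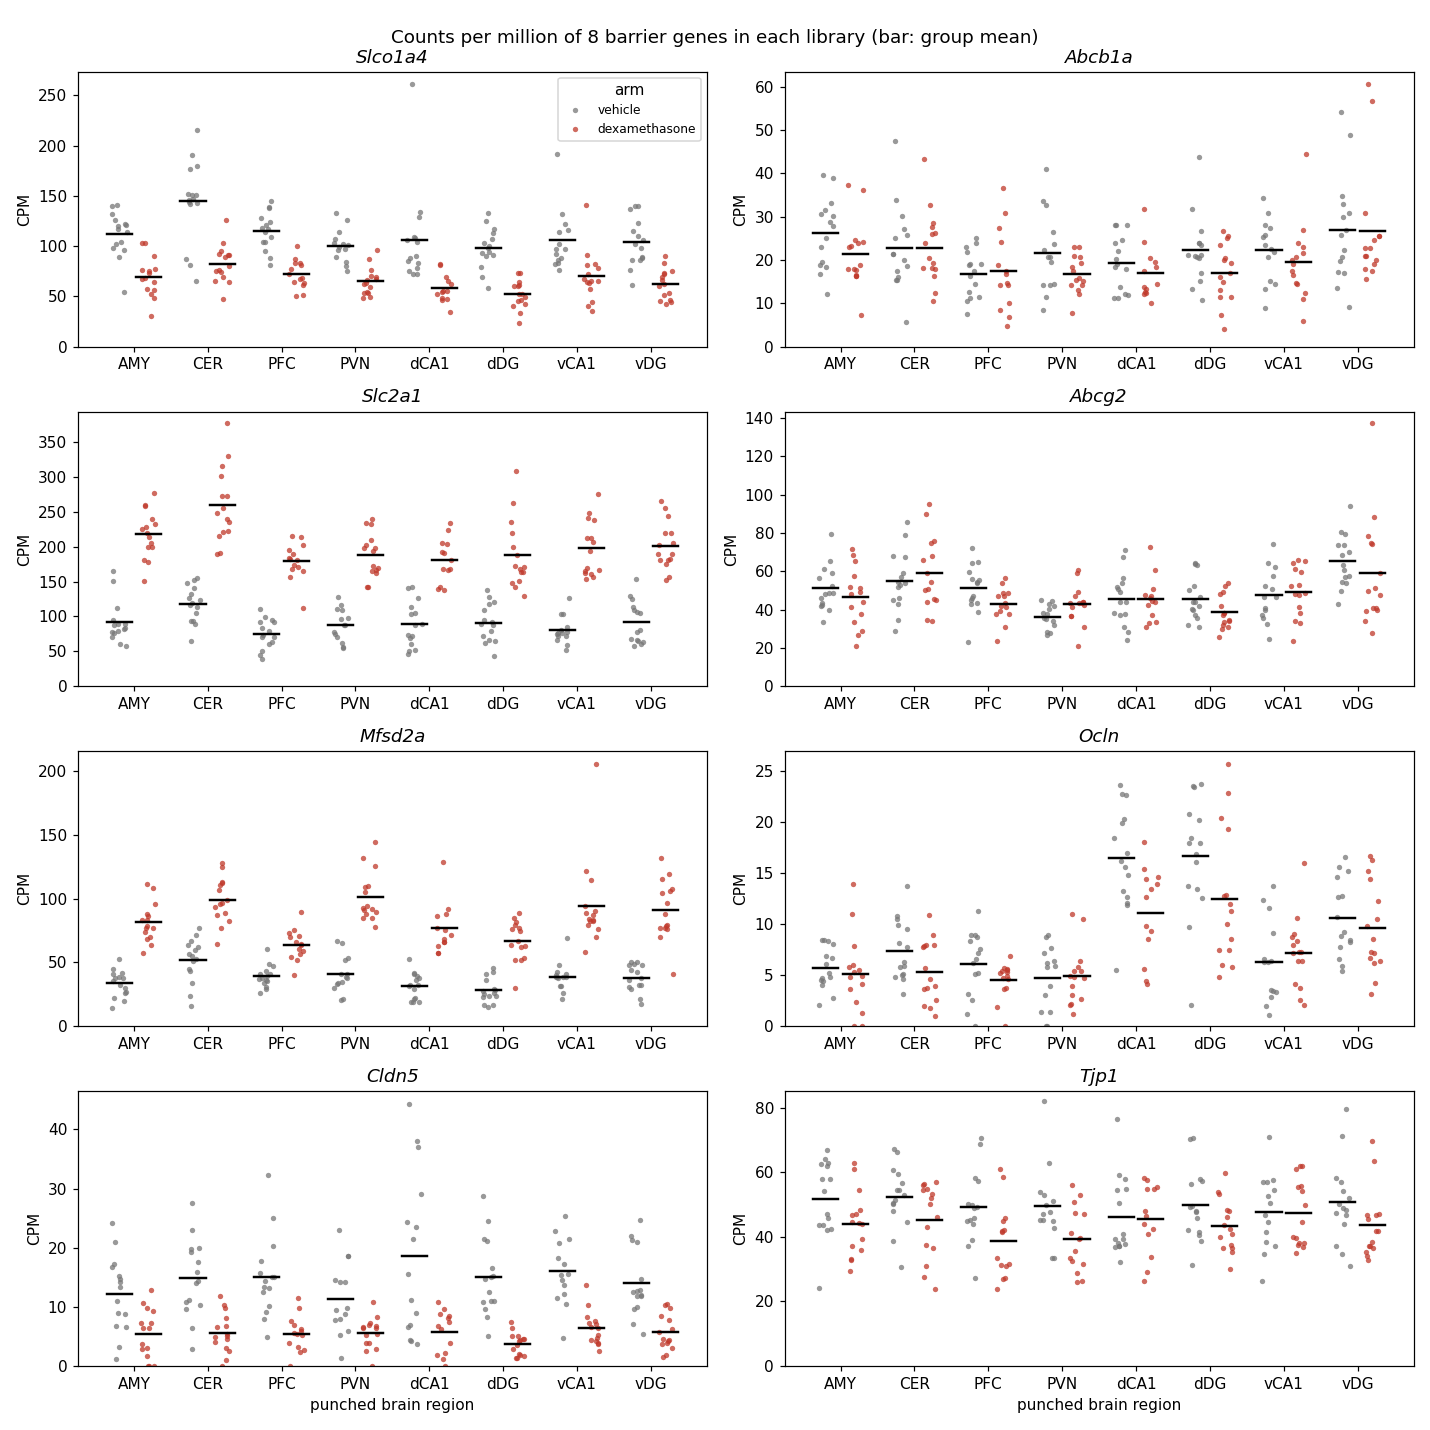
CPM (y axis) of the 8 barrier genes in each library, by punched region (x axis); grey points are vehicle, red points dexamethasone, and bars are group means. Dexamethasone means lie above vehicle for Slc2a1 and Mfsd2a and below for Slco1a4 and Cldn5 in every region, and Ocln is highest in dCA1 and dDG.

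Slc2a1, the glucose carrier, rose in 8 of 8 regions. In vCA1 the vehicle libraries had a lowest value of 52.4, a median of 76.4 and a highest of 127 CPM, and the dexamethasone libraries had 153, 193 and 275 CPM. All dexamethasone libraries lay above all vehicle libraries. In dDG, where the response was smallest, vehicle libraries stood at 43.6, 88.7 and 137 CPM and dexamethasone libraries at 129, 171 and 309 CPM. There the arms overlapped, with 14 of 15 dexamethasone libraries above the highest vehicle library. The arms did not overlap in CER (0.609% of all genes tested there), PFC (0.424%), PVN (0.399%) and vCA1 (0.329%). The log2 fold change ran from 1.03 ± 0.14 (SE) in dDG to 1.29 ± 0.11 in vCA1, that is 2.04-fold to 2.44-fold. Adjusted p-values ran from 2.44e-12 to 1.33e-06 (edgeR quasi-likelihood test, adjusted over all genes of the region). In the same fits, over 8548 to 9311 genes, 5.62% passed and 3.54% rose in AMY, 6.18% and 3.9% in CER, 6.14% and 3.86% in PFC, and 5.63% and 3.57% in PVN. In vCA1 5.45% passed and 3.41% rose, against 4.68% and 2.57% in dCA1, 3.93% and 2.64% in vDG, and 3.7% and 2.33% in dDG.

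Mfsd2a, the lysophospholipid carrier, also rose in 8 of 8 regions, against the same background. In PVN the vehicle libraries had a lowest value of 20.6, a median of 38.4 and a highest of 67.2 CPM, and the dexamethasone libraries had 77.8, 92.9 and 145 CPM. The arms did not overlap there, nor in AMY (0.441% of genes) and dCA1 (0.252%). In PFC the shift was smallest, with vehicle libraries at 26.2, 37.5 and 60.4 CPM and dexamethasone libraries at 40.2, 64.0 and 89.4 CPM. All 14 dexamethasone libraries of PFC lay above the vehicle median, and 9 lay above the highest vehicle library. The log2 fold change was 0.73 ± 0.11 (SE) in PFC and 0.87 ± 0.13 in CER, and 1.26 to 1.36 in the other 6 regions. Adjusted p-values ran from 1.77e-11 to 2.3e-06. One dexamethasone library of vCA1, replicate 4, reached 206 CPM, and without the libraries absent from the authors' tables the log2 fold change in vCA1 was 1.14 in place of 1.29.

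Slco1a4, the organic anion carrier, fell in 8 of 8 regions. Of all genes tested, 1.29% fell in vDG, 1.37% in dDG, 2.04% in vCA1, 2.06% in PVN, 2.08% in AMY, 2.11% in dCA1 and 2.28% in both CER and PFC. In dDG the vehicle libraries had a lowest value of 58.5, a median of 98.1 and a highest of 133 CPM, and the dexamethasone libraries had 23.9, 52.3 and 73.2 CPM. Of the 15 dexamethasone libraries of dDG, 9 lay below the lowest vehicle library. In vCA1 vehicle libraries stood at 76.0, 97.3 and 192 CPM and dexamethasone libraries at 35.8, 65.4 and 141 CPM. The arms overlapped in all 8 regions, yet all dexamethasone libraries lay below the vehicle median in 7 of them and 14 of 15 did in vCA1. The log2 fold change ran from -0.93 ± 0.12 (SE) in dDG to -0.62 ± 0.14 in vCA1, which is 0.524 to 0.649 times the vehicle level. Adjusted p-values ran from 1.41e-06 to 0.00353. In dCA1 the log2 fold change of -0.85 was -0.73 (adjusted p = 5.15e-05) without the vehicle library that stood apart. In AMY the log2 fold change of -0.66 became -0.32 (edgeR, adjusted p = 0.378) with the endothelial level as a covariate.

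For Slc2a1, Mfsd2a and Slco1a4 the direction was the same in all 32 combinations of region and date of punching and in all 32 of region and plate that held at least a pair of libraries per arm.

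**Figure D2:**
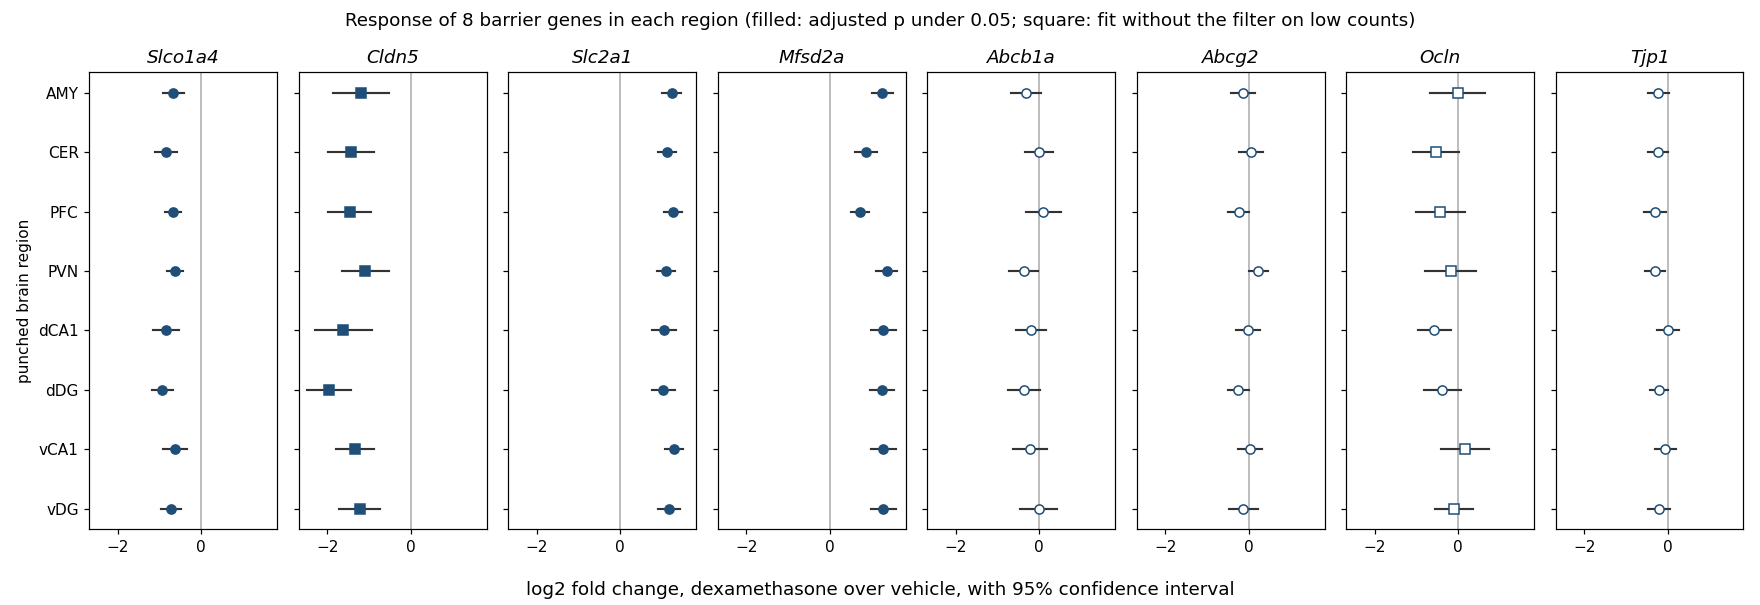
Log2 fold change of dexamethasone over vehicle (x axis) with its 95% confidence interval, for each barrier gene (panels) and punched region (y axis); filled symbols passed an adjusted p of 0.05, and squares are from fits without the filter on low counts. Slc2a1 and Mfsd2a lie right of 0 and Slco1a4 and Cldn5 left of 0 in all 8 regions. Of the other 4 genes, Ocln in dCA1, Tjp1 in PFC and PVN and Abcb1a in PVN have intervals left of 0. Abcg2 in PVN has one right of 0, and their remaining intervals include 0.

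The efflux pumps did not pass the threshold in any region. Abcb1a (P-glycoprotein) in PVN had a lowest value of 8.53, a median of 20.7 and a highest of 41.1 CPM in vehicle libraries and 7.84, 15.9 and 23.1 CPM in dexamethasone libraries. The arms overlapped there and in the other 7 regions. Its log2 fold change ran from -0.37 in PVN to 0.10 in PFC, with 95% intervals that together spanned -0.76 to 0.52, and adjusted p from 0.291. Abcg2 ran from -0.25 in dDG to 0.23 in PVN, with intervals that together spanned -0.50 to 0.45, and adjusted p from 0.316. Each of the 2 pumps had an unadjusted p under 0.05 in 1 region, and DESeq2 called neither in any region. Changes of the size of Slc2a1, or of the size of Slco1a4 in dDG, lie outside these intervals.

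Cldn5, the sealing claudin, was counted so rarely that edgeR's filter on low counts left it out in all 8 regions. Its results come from the same fit without that filter, and there it fell in 8 of 8 regions (edgeR; DESeq2 without the filter also called 8). In dDG the vehicle libraries had a lowest value of 5.08, a median of 14.7 and a highest of 28.7 CPM, and the dexamethasone libraries had 1.28, 4.29 and 7.49 CPM. These levels rest on 166 counts over 15 vehicle libraries and 39 counts over 15 dexamethasone libraries, and 12 of the 15 dexamethasone libraries lay below the lowest vehicle library. In PVN vehicle libraries stood at 1.38, 9.63 and 23.0 CPM and dexamethasone libraries at 0, 6.37 and 10.8 CPM. The arms overlapped in all 8 regions, and 14 of 15 dexamethasone libraries of PVN and every dexamethasone library of the other 7 regions lay below the vehicle median. The log2 fold change ran from -1.95 ± 0.26 (SE) in dDG to -1.08 ± 0.28 in PVN, or 0.258 to 0.471 times the vehicle level. Adjusted p-values ran from 1.29e-06 in dDG to 0.0281 in AMY. Without the filter, over 18540 to 19039 genes, 3.45% passed and 1.27% fell in AMY, 3.7% and 1.35% in CER, 4.06% and 1.53% in PFC, and 3.54% and 1.43% in PVN. In vCA1 3.76% passed and 1.47% fell, against 3.03% and 1.24% in dCA1, 2.69% and 0.935% in vDG, and 2.44% and 1.04% in dDG.

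The Cldn5 difference was negative in all 32 combinations of region and date and in 31 of 32 of region and plate. The exception was 1 plate in PVN, with a log2 difference of 0.00264. With the endothelial level as a covariate, Cldn5 no longer passed in 4 regions. In these fits without the filter, that covariate averaged all endothelial markers counted in the region, also those too low for the main test. Its log2 fold change was then -0.40 in AMY (edgeR adjusted p = 0.819), -0.56 in PVN (0.649), -0.87 in PFC (0.472) and -1.06 in dCA1 (0.104). It did not pass in AMY either without the libraries of RIN under 5 (log2 fold change -1.06, adjusted p = 0.11).

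Ocln was tested with the filter in dCA1 and dDG, the regions where it is highest. In dCA1 it had a lowest value of 5.52, a median of 16.2 and a highest of 23.6 CPM in vehicle libraries and 4.15, 12.6 and 18.0 CPM in dexamethasone libraries. The arms overlapped, with 12 of 13 dexamethasone libraries below the vehicle median. Its log2 fold change was -0.57 ± 0.19 (SE) in dCA1 (95% interval -0.96 to -0.18, adjusted p = 0.0871) and -0.38 ± 0.22 in dDG (adjusted p = 0.511). The summed dentate markers of dCA1 had a median of 661 CPM in vehicle and 477 in dexamethasone libraries. With the dentate level, the mean log2 CPM of these markers, as a covariate, Ocln was at -0.36 in dCA1 (edgeR adjusted p = 0.302). In dDG it was then at -0.38 (0.377). Without the filter Ocln passed in 0 of 8 regions, with 1 at an unadjusted p under 0.05 and 0 in DESeq2. Its log2 fold changes ran from -0.57 to 0.17.

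Tjp1, the scaffold, was tested in all 8 regions and passed in none. In PFC it had a lowest value of 27.1, a median of 48.9 and a highest of 70.7 CPM in vehicle libraries and 23.9, 37.6 and 60.9 CPM in dexamethasone libraries. Log2 fold changes ran from -0.30 in PFC and PVN to 0.01 in dCA1, negative in 7 of 8 regions, with adjusted p from 0.198. In 2 regions the unadjusted p was under 0.05, and DESeq2 called 0.

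Summing each animal's counts over its regions gives 15 animals per arm and totals of 4040938 to 7076142 counts, of which 26 animals had all 8 regions and the fewest regions of any animal was 6. This comparison was added after the regional results were seen. Of 13395 genes tested, 19.2% passed, 9.38% up and 9.78% down. Slc2a1 had a lowest value of 63.3, a median of 89.2 and a highest of 128 CPM in vehicle animals and 183, 199 and 216 CPM in dexamethasone animals. Mfsd2a stood at 25.0, 36.4 and 52.7 CPM in vehicle animals and 72.4, 81.9 and 114 CPM in dexamethasone animals. In Slco1a4 the values were 93.8, 109 and 129 CPM in vehicle animals and 52.65, 65.5 and 80.4 CPM in dexamethasone animals. For these 3 genes no animal of one arm reached the range of the other, which held for 2.33% of genes.

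The log2 fold changes over animals were 1.16 ± 0.07 (SE) for Slc2a1 (2.24-fold, edgeR adjusted p = 3.29e-16), 1.18 ± 0.08 for Mfsd2a (2.26-fold, 1.06e-14) and -0.73 ± 0.05 for Slco1a4 (0.601-fold, 1.88e-14). Cldn5 passed the filter here. Its lowest, median and highest values were 6.32, 16.0 and 21.5 CPM in vehicle animals and 3.72, 5.17 and 8.40 CPM in dexamethasone animals. The arms overlapped only at the lower end of the vehicle range. Cldn5 fell with a log2 fold change of -1.43 ± 0.14 (0.371-fold, adjusted p = 1.49e-10). Tjp1 fell slightly, from 49.3 ± 3.30 to 43.7 ± 4.01 CPM (SD, n = 15), a log2 fold change of -0.18 ± 0.04 (edgeR adjusted p = 0.00178, 95% interval -0.27 to -0.09). Ocln (-0.29 ± 0.11, adjusted p = 0.0708), Abcb1a (-0.15 ± 0.07, 0.18) and Abcg2 (-0.04 ± 0.06, 0.738) did not pass in edgeR. The interval of Abcg2 ran from -0.16 to 0.08 and that of Abcb1a from -0.30 to 0.00132. With the replicate number as a block, which pairs the arms by plate and nearly always by date of punching, Ocln passed (edgeR, log2 fold change -0.30, adjusted p = 0.0148). It also passed without that block when vCA1 was left out (edgeR, log2 fold change -0.34, adjusted p = 0.0392).

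**Figure D3:**
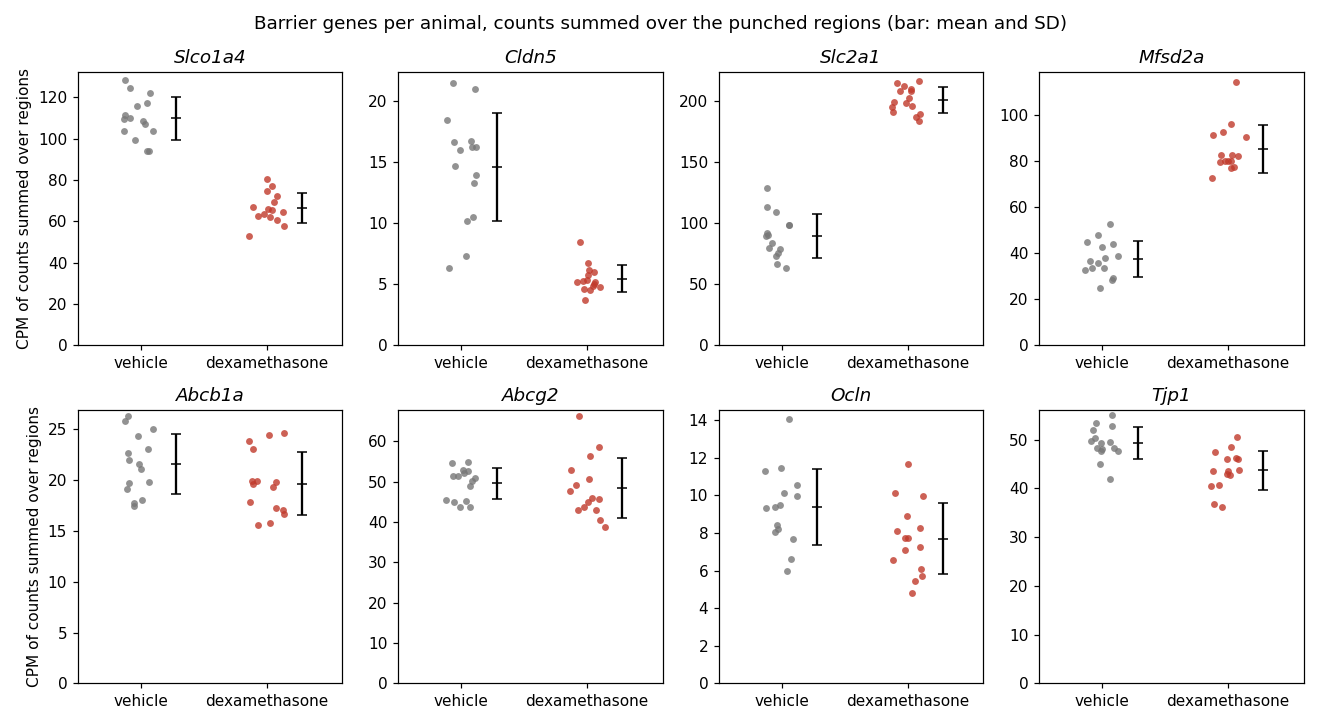
CPM (y axis) of the 8 barrier genes per animal, from counts summed over the animal's punched regions, for vehicle (grey) and dexamethasone (red); black marks are the mean and SD of 15 animals. The arms do not overlap for Slco1a4, Slc2a1 and Mfsd2a, and Cldn5 falls from a mean of 14.6 to 5.42.

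No member's response differed among regions in the main test of region by treatment (edgeR, 140 of 11053 genes or 1.27% passed, 0 members). Mfsd2a, with its smaller rise in PFC and CER, had the lowest p of the members (unadjusted 0.00269, adjusted 0.133), and it alone was under 0.05 unadjusted. Its adjusted p was 0.0468 with the endothelial level as a covariate and 0.042 in the libraries of the authors' tables, so the call depends on those choices. For the other 7 members the adjusted p was 0.9998.

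Each member was also set against the endothelial level of the same library, the mean log2 CPM of the 9 to 12 endothelial genes tested in the region, none of them a member. That level itself fell in AMY (-0.33, adjusted p = 0.00016), PVN (-0.26), dDG (-0.25), dCA1 (-0.27) and PFC (-0.15), by two-sided permutation tests adjusted over 8 regions. It did not pass in CER (-0.07), vCA1 (-0.07) and vDG (-0.00047). Kdr, which fell in all regions, is one of the genes in it. The genes averaged differed by region (9 in AMY and PVN, 10 in dCA1, 11 in dDG and 12 in the others). With the same 12 genes in every region, an alternative added after the data were seen, the level fell less in AMY (-0.21, adjusted p = 0.0048) and PVN (-0.19, 0.00789), and in dCA1 (-0.16, 0.192) it did not pass. Relative to it, Slc2a1 rose by 1.15 to 1.59 and Mfsd2a by 0.82 to 1.59 in 8 of 8 regions, and Slco1a4 fell in 8 of 8 by values between -0.71 and -0.36. Their adjusted p was at most 0.01 over 50 pairs of member and region. In AMY the Slco1a4 value of -0.36 became -0.31 (adjusted p = 0.0548) without libraries of RIN under 5. Over all 64 pairs, added after the low counts were seen, Cldn5 fell in 6 of 8 regions by values from -1.18 to -0.91, and not in AMY (-0.62, adjusted p = 0.0934) and PVN (-0.46, 0.131). The prior count of 2 in these log2 values shrinks the differences of genes with few counts. In vDG, where the endothelial level hardly moved, Cldn5 stood at -0.99, against a fitted log2 fold change of -1.22. The Cldn5 values here therefore cannot be set directly against its fitted changes. Against the same 12 genes, Cldn5 passed in AMY as well (-0.74, adjusted p = 0.0386) and not in PVN (-0.53, 0.0632), and Slco1a4 fell in 8 of 8 regions by values between -0.71 and -0.43. Abcg2 was higher relative to the endothelial level in PVN (0.46, adjusted p = 0.00325), and Abcb1a, Ocln and Tjp1 passed in 0 regions.

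Other carriers and efflux pumps of the barrier mostly fell where they changed. Of 109 tests of 15 genes, 27 fell (24.8%) and 1 rose, against 1.94% and 3.23% of the 71817 tests of all genes, and the median log2 fold change was -0.11 (-0.00679 over all genes). Slc6a6, a taurine carrier, fell in 7 of 8 regions (median -0.42). Slco1c1, a thyroxine carrier related to Slco1a4, fell in 6 of 8 (median -0.73), with its largest drop of -1.04 in PFC. Slc16a1, the monocarboxylate carrier MCT1, fell in 6 of 8 (median -0.58), and Slc22a8, an organic anion carrier, fell in 5 of the 7 regions where it was tested (median -0.95).

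With the endothelial level as a covariate, 15 of 109 tests in this list passed (13.8%, against 4.87% of all tests in that fit) in place of 28 (25.7%, against 5.17%). Other junction genes changed in 7 of 104 tests, 6 down and 1 up (6.73%, against 5.17% of all tests), and in 13 with the replicate block (12.5%, against 6.41%). F11r, the junctional adhesion molecule A, fell in AMY, CER, PFC and dCA1 (median over regions -0.59). Jam2, a related adhesion molecule, fell in PVN, and the polarity gene Pard3 rose in dDG. Genes of vesicle traffic and receptor uptake changed in 3 of 88 tests, all up, which is a share of 3.41% near the 3.23% of all tests that rose. DESeq2 called 8 of them, 7 up and 1 down (9.09%, against 5.52% of all tests), and the replicate block 6, 5 up and 1 down (6.82%, against 6.41%). Of the 4 caveolar genes tested, Cavin1 rose in PVN (0.42 ± 0.12) with values from -0.33 to 0.49 over regions, and Cavin2 rose in vCA1 (0.98 ± 0.17). Cav1 and Cav2, named here after their values were seen, ran from -0.18 to 0.29 and from -0.35 to 0.14, with lowest edgeR adjusted p-values of 0.37 and 0.384. Bsg (basigin) passed in 0 of 8 regions in edgeR, with log2 fold changes from -0.38 to -0.10.

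Regulators of the barrier changed in both directions, with 21 of 107 tests up (19.6%, against 3.23% of all tests) and 15 down (14.0%, against 1.94%). Lrp6, a Wnt coreceptor, rose in 8 of 8 regions (median 0.59). Fzd4, the receptor for norrin, rose in 7 of 8 (median 1.11, highest 1.54 in dCA1), and dDG was the exception (0.39, adjusted p = 0.396). Ndp, which encodes norrin, the ligand of Fzd4, fell in all 7 regions where it was tested (median -0.95), and the transcription factor gene Foxq1 fell in 4 of 7 (median -0.60).

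Among the endothelial identity genes, 17 of 87 tests fell (19.5%, against 1.94% of all tests) and 5 rose (5.75%, against 3.23%). Without the filter on low counts 46 of 176 tests passed (26.1%), 41 down and 5 up, in place of 22 of 87 (25.3%). In those fits 2.44% to 4.06% of all genes passed per region. Kdr, the vascular endothelial growth factor receptor 2, fell in 8 of 8 regions by log2 values from -2.13 in CER to -1.26 in vDG. Ptprb, an endothelial phosphatase, and Itm2a each fell in 3 of 8, and Ramp2, a receptor partner in adrenomedullin signalling, rose in 4 of 6. The median over this list was -0.12. The junction gene list shares Pecam1 and Esam with it. In pericytes and smooth muscle, 0 of 32 tests passed in edgeR and 0 in DESeq2, with 7 at an unadjusted p under 0.05. The named mural genes were Acta2 (median -0.37), Abcc9 (0.35), Pdgfrb (-0.30) and Vtn (-0.25).

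**Figure D4:**
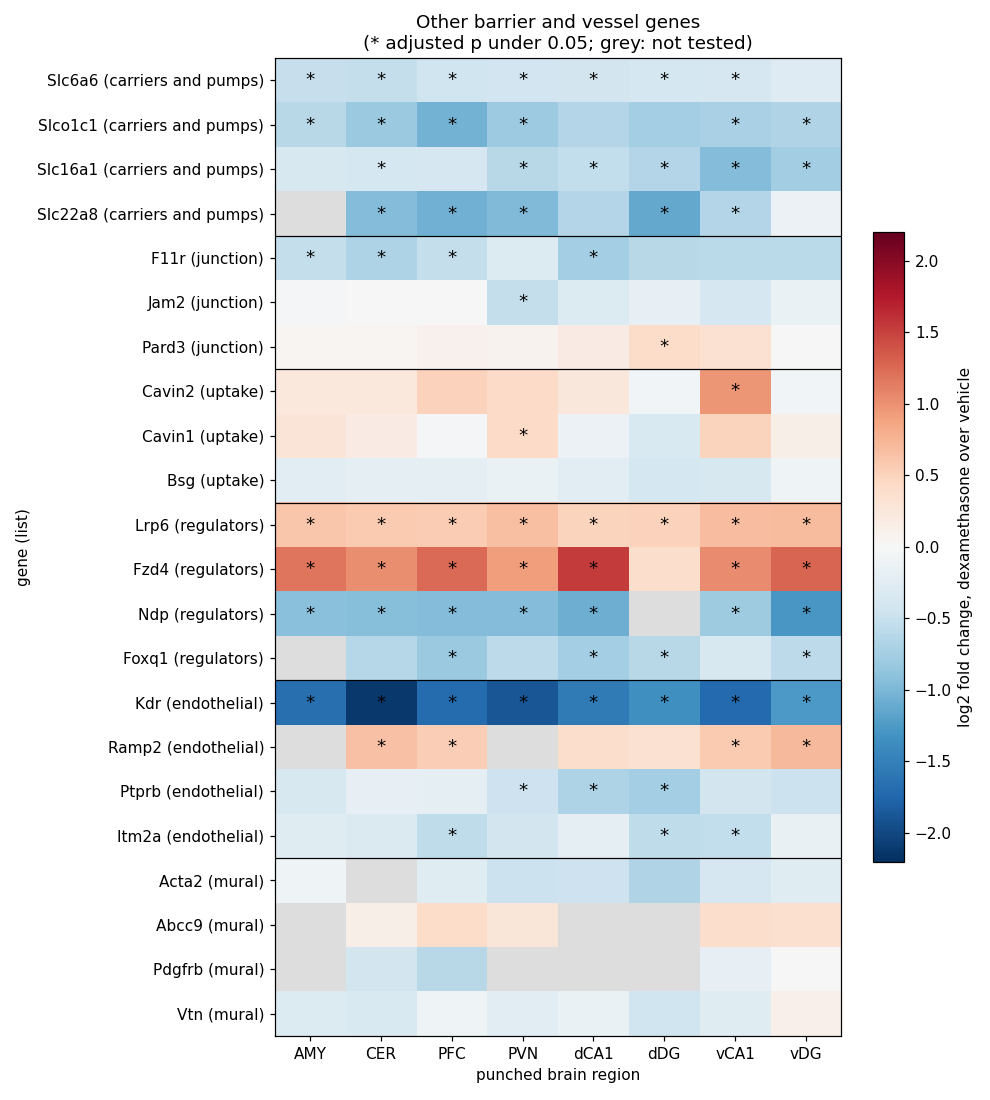
Log2 fold change of dexamethasone over vehicle (colour) for leading genes of 6 lists (rows) in each punched region (columns); a star marks an adjusted p under 0.05 and grey marks genes not tested. Kdr, Ndp and the carriers of the first rows are blue, and Lrp6 and Fzd4 red, with Fzd4 in dDG the pale exception.

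Markers of other cell types are given for the same punches. Over all genes, 3.23% of tests rose and 1.94% fell. Fibroblast and meningeal genes rose in 6 of 41 tests (14.6%) and fell in 0, microglial genes fell in 17 of 66 (25.8%), and oligodendrocyte genes fell in 10 of 78 (12.8%). Blood genes passed in 0 of 31 tests in edgeR and in DESeq2, with 2 at an unadjusted p under 0.05. Choroid plexus genes fell in 1 of 15 tests (6.67%), and dentate genes rose in 2 of 30 (6.67%) and fell in 1 (3.33%). The choroid call (Ttr, -2.27) and both dentate rises were in vCA1, so markers of punch content differed between the arms there. DESeq2 called 0 of the choroid tests and 3 of the dentate tests. In vCA1 the summed dentate markers had a median of 99.1 CPM in vehicle libraries (60.5 to 178) and 195 in dexamethasone libraries (92.8 to 441), and the summed choroid markers 57.9 (29.3 to 1564) and 52.3 (28.9 to 114). With the dentate level as a covariate in vCA1, the log2 fold change was 1.27 for Slc2a1 (edgeR adjusted p = 1.04e-08), 1.11 for Mfsd2a (8.74e-05) and -0.68 for Slco1a4 (0.0245). Astrocyte genes rose in 8 of 80 (10.0%) and fell in 9 (11.2%), with Sox9 down and Gjb6 up, and Slc2a1 is also made by astrocytes. The summed choroid plexus markers had a median of 1393 CPM in vehicle libraries of dDG (55.0 to 12140) and 291 in dexamethasone libraries (67.3 to 14450). With the choroid level as a covariate, Slc2a1, Mfsd2a and Slco1a4 passed in every region. Beyond these covariates, the part of other cell types in the results was not tested.

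For each member tested in all 8 regions, the genes most like it were taken by Pearson's r over all libraries of log2 CPM centred on the group mean, among 7918 genes, as a description that library depth and punch content also enter. Slc2a1 was most like Nfkbia (r = 0.652), Rgs5 (0.618) and Acsl3 (0.613), and Mfsd2a was most like Smim3 (0.51), Nfkbia (0.488) and Rps12 (0.455). Slco1a4 was most like Bcan (0.459), Adgrf5 (0.436) and Dock6 (0.429). Abcb1a was most like Chpt1 (0.486), Sparcl1 (0.444) and Rgs5 (0.442). For Abcg2 the nearest were Slc38a2 (0.396), Irf9 (0.385) and Neat1 (0.384), and for Tjp1 they were Ktn1 (0.419), Arhgap5 (0.418) and Arhgef12 (0.408). Among pairs of members the highest was Slc2a1 with Mfsd2a (0.492). Slco1a4 had the highest r with the endothelial level (0.555) and Tjp1 the lowest (0.0756).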

How the data were processed

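Gene expression was measured by 3′ mRNA sequencing in libraries of 8 punched regions. Per the submitters' processing notes, the authors used FastQC 0.11.4, cutadapt, UMI-tools 0.5.4, STAR 2.6.0a, featureCounts 1.6.4, DESeq2 1.30.1 and R 4.0.5 with mm10, with no order or role given. The deposited table holds whole-number counts per gene, and totals were 268538 to 1451422. The authors' tables of variance-stabilised log2 values held 228 of the libraries and served as an alternative.

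In each region, dexamethasone and vehicle were compared on the deposited counts with edgeR 4.0.16 (R 4.3.3; filterByExpr, TMM, quasi-likelihood test), adjusted by Benjamini-Hochberg over all genes, with a threshold of 0.05. Tests among regions had the animal as a block. Levels relative to the endothelial level used a log2 prior count of 2 and 100000 permutations (smallest p 1e-05). DESeq2 1.42.0 and limma 3.58.1 gave alternatives, with other scalings, filters, covariates and left-out libraries. Per the labels, the 115 pairs of same-numbered vehicle and dexamethasone libraries of a region shared the plate, and 109 shared the date of punching (all but number 4), so the number pairs the arms. The median correlation of their deviations from the group means was 0.0461 to 0.215 over regions, with 4 to 12 pairs of a region over 0.1. The fit with the number as a block is given where it changes a result. Named genes were the 8 members, up to 4 per list with the most regions called, and the 3 genes most like each member; some genes that this rule names are not reported here. The members and lists were chosen with earlier results of these data known. Gene symbols came from GENCODE for 27645 IDs, and promoters from RefSeq GRCm38.p6. Figures were drawn with matplotlib 3.10.9.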

Additional observations from a re-analysis of the deposited data

How the results depend on the processing

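No called result changed sign. Of the single-gene results under all alternatives, 1233 kept their side of the threshold, 8 passed newly and 7 no longer passed, all given above. Counts that moved by over 1.5 times were the members whose response differs among regions (0 to 1 with the endothelial covariate and in the libraries of the authors' tables), endothelial tests (22 to 46 without the filter), other carriers (28 to 15 with the endothelial covariate), pericyte and smooth muscle tests (0 to 1 without the filter), junction tests (7 to 13 with the replicate block) and uptake tests (3 to 5 with date and plate, 8 with DESeq2, 5 in the libraries of the authors' tables and 6 with the replicate block). The endothelial tests themselves grew from 87 to 176 without the filter, and the share that passed went from 25.3% to 26.1%. With the replicate block 3 members changed in each region and 6 over animals, Ocln being added, and the block changed no other call of a member. Cldn5 averaged 2.60 to 4.87 counts per dexamethasone library, which limits its precision.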
